A study of Mus musculus with 6 samples.

Results

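The genes described here encode the proteasome, the protease that degrades ubiquitin-tagged proteins, together with its regulators and assembly factors. A gene was taken as a member when its platform symbol began with Psma, Psmb, Psmc, Psmd, Psme, Psmf or Psmg followed by a digit and its probe set carried that symbol alone. Each gene was read from its brightest such probe set, by the mean over 6 arrays. This gave 49 genes, on 103 probe sets, of 18193 genes with a probe set of 1 symbol. The rule took in Psmc3ip, a cofactor of DNA recombination, and Psme3ip1, a protein that binds PA28 gamma, and neither is a proteasome subunit. It left out PA28 beta (Psme2), whose probe set is shared with Psme2b.

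RNA was hybridised to Affymetrix mouse 430 2.0 arrays, whose short probes lie near the 3' ends of transcripts. The groups were CD8+ T cells of Nrdp1-/- mice and of wild-type (Nrdp1+/+) mice, all of the strain labelled C57/BL6, with the cells described as naive and taken from spleen. Cells of each genotype were left untreated or were stimulated for 4 h or 8 h with plate-bound antibody to CD3 at 5 µg/ml and soluble antibody to CD28 at 1 µg/ml, which engage the T cell receptor complex and its costimulatory receptor. There was 1 array per genotype and time, 6 in all. Nrdp1, the product of Rnf41, is an E3 ubiquitin ligase. The labels do not give the age or the number of mice, the deleted part of the gene, or whether an animal gave RNA to several arrays. The p-values therefore describe the scatter among these 6 arrays, and that scatter may be technical. In the fit with time and genotype as terms, a difference between the genotypes in their time course is itself part of that scatter. Without replicates it cannot be told apart from technical scatter. The design asks how proteasome transcripts respond to stimulation and whether they do so in the same way when Nrdp1 is missing.

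The proteasome consists of a barrel-shaped core particle, called 20S, and regulatory particles that cap it. The outer rings of the core are built of alpha subunits and its inner rings of beta subunits, and a few of the beta subunits carry the proteolytic sites. The 19S regulatory particle binds ubiquitin chains, removes them, unfolds the substrate with a ring of ATPases and threads it into the core. In lymphocytes and in cells exposed to interferon gamma, inducible catalytic subunits take the place of the constitutive ones to form the immunoproteasome, and the PA28 cap of alpha and beta subunits is induced as well. The peptides released supply the class I molecules that CD8+ T cells recognise. T cells themselves carry much immunoproteasome, and proteasome activity is needed for their growth after activation.

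The deposited values are MAS5 signals, scaled by the authors so that the trimmed mean, with 2% cut off at either end, was 499.8 to 499.9 on every array, and the median signal was 61.5 to 68.6. Rnf41 gave 528, 437 and 477 on the Nrdp1-/- arrays (untreated, 4 h, 8 h), against 728, 505 and 639 on the wild-type arrays, and its mean difference did not pass the threshold (-0.36 ± 0.12 on the log2 scale, limma, adjusted p = 0.128). Which part of Rnf41 was deleted is not known here, so that probe set may check nothing about the labels. The extraction text of the labels names whole colon, whereas the titles name CD8+ T cells. All 5 CD8 T cell markers on the array lay at or above the array median on all 6 arrays. Of 3 CD4 T cell markers, Cd4 stood at 6.06 to 15.7 and Foxp3 at 14.5 to 59.8, below the median. Ctla4, of the same list, stood at 691 to 881, above the median on all 6 arrays. Of 8 colon epithelium markers, 2 to 4 reached the median on an array, with summed signals of 669 to 956 on Nrdp1-/- arrays and 769.7 to 1150.5 on wild-type arrays. The 4 smooth muscle markers summed to 113 to 191 on Nrdp1-/- arrays and 125 to 237 on wild-type arrays. Other cells differed between the genotypes. Of 12 tested myeloid markers 6 were higher in Nrdp1-/- cells, where 2.47% of all tested genes were higher and 2.57% lower (limma, adjusted p under 0.05). The 13 myeloid markers on the array had summed signals of 13559, 8676 and 3159 in Nrdp1-/- cells (untreated, 4 h, 8 h), against 2204, 2133 and 2071 in wild type. Of 8 tested B cell markers 7 were lower and Ighm was higher, with a list median of -2.24. Of the 9 memory-like CD8+ T cell markers 6 were higher. Klrd1, of the same list, had a negative difference that did not pass (-0.31 ± 0.08, limma, adjusted p = 0.0622).

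After stimulation the proteasome genes were higher as a group of transcripts, and the rise was of moderate size. At 4 h 21 of the 47 tested genes rose and 0 fell, where 8.01% of all tested genes rose and 5.51% fell (limma, adjusted p under 0.05, each time against untreated with the genotypes as a term). At 8 h 35 rose and 0 fell, against 9.88% and 9.26% of all tested genes. At an unadjusted p under 0.05 the counts were 29 higher at 4 h and 39 at 8 h, against 13.3% and 14.3% of all tested genes, and 0 lower at either time, against 14.3% and 18.1%. The 35 included all 21 of 4 h. The median log2 difference of the members was 0.33 at 4 h and 0.51 at 8 h, where that of all tested genes was -0.05 and -0.07. The share of positive differences was 44 of 47 at both times, and it was 43.9% and 42.6% over all genes. On 37 members all 4 stimulated arrays lay above both untreated arrays, as they did for 16.7% of all genes, and on 0 members they all lay below, where 21.7% of all genes did. These values are per amount of RNA: fewer cells of a type and less RNA per cell cannot be told apart in such samples. Both comparisons share the untreated arrays. The members were bright, with a median percentile of 92.84 in mean signal among genes. Among genes past a filter at the 70th percentile of signal, 11.3% rose at 4 h and 13.5% at 8 h. There 23 and 35 of 46 members rose. Of 12 myeloid markers 1 was lower at 4 h and 5 at 8 h, and of 8 B cell markers 2 were lower at 8 h, and their part in the counts was not tested.

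These counts depend on how the spread was estimated and on single arrays. Without the intensity trend in the variance, limma called 0 members at either time, with lowest adjusted p-values of 0.0853 at 4 h and 0.0605 at 8 h, while 21 and 34 members were higher at an unadjusted p under 0.05. The 4 h count was 5 without the untreated Nrdp1-/- array, 9 without the untreated wild-type array, 11 without the 4 h Nrdp1-/- array and 13 without the 4 h wild-type array. The 8 h count was 22 without the untreated Nrdp1-/- array. At 4 h 39 members were above untreated in both genotypes, as were 29.1% of all genes, and at 8 h 43 were, as were 30.7% of all genes. In Nrdp1-/- cells the median single-array difference from untreated was 0.36 at 4 h and 0.52 at 8 h, and in wild-type cells it was 0.28 and 0.48.

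**Figure D1:**
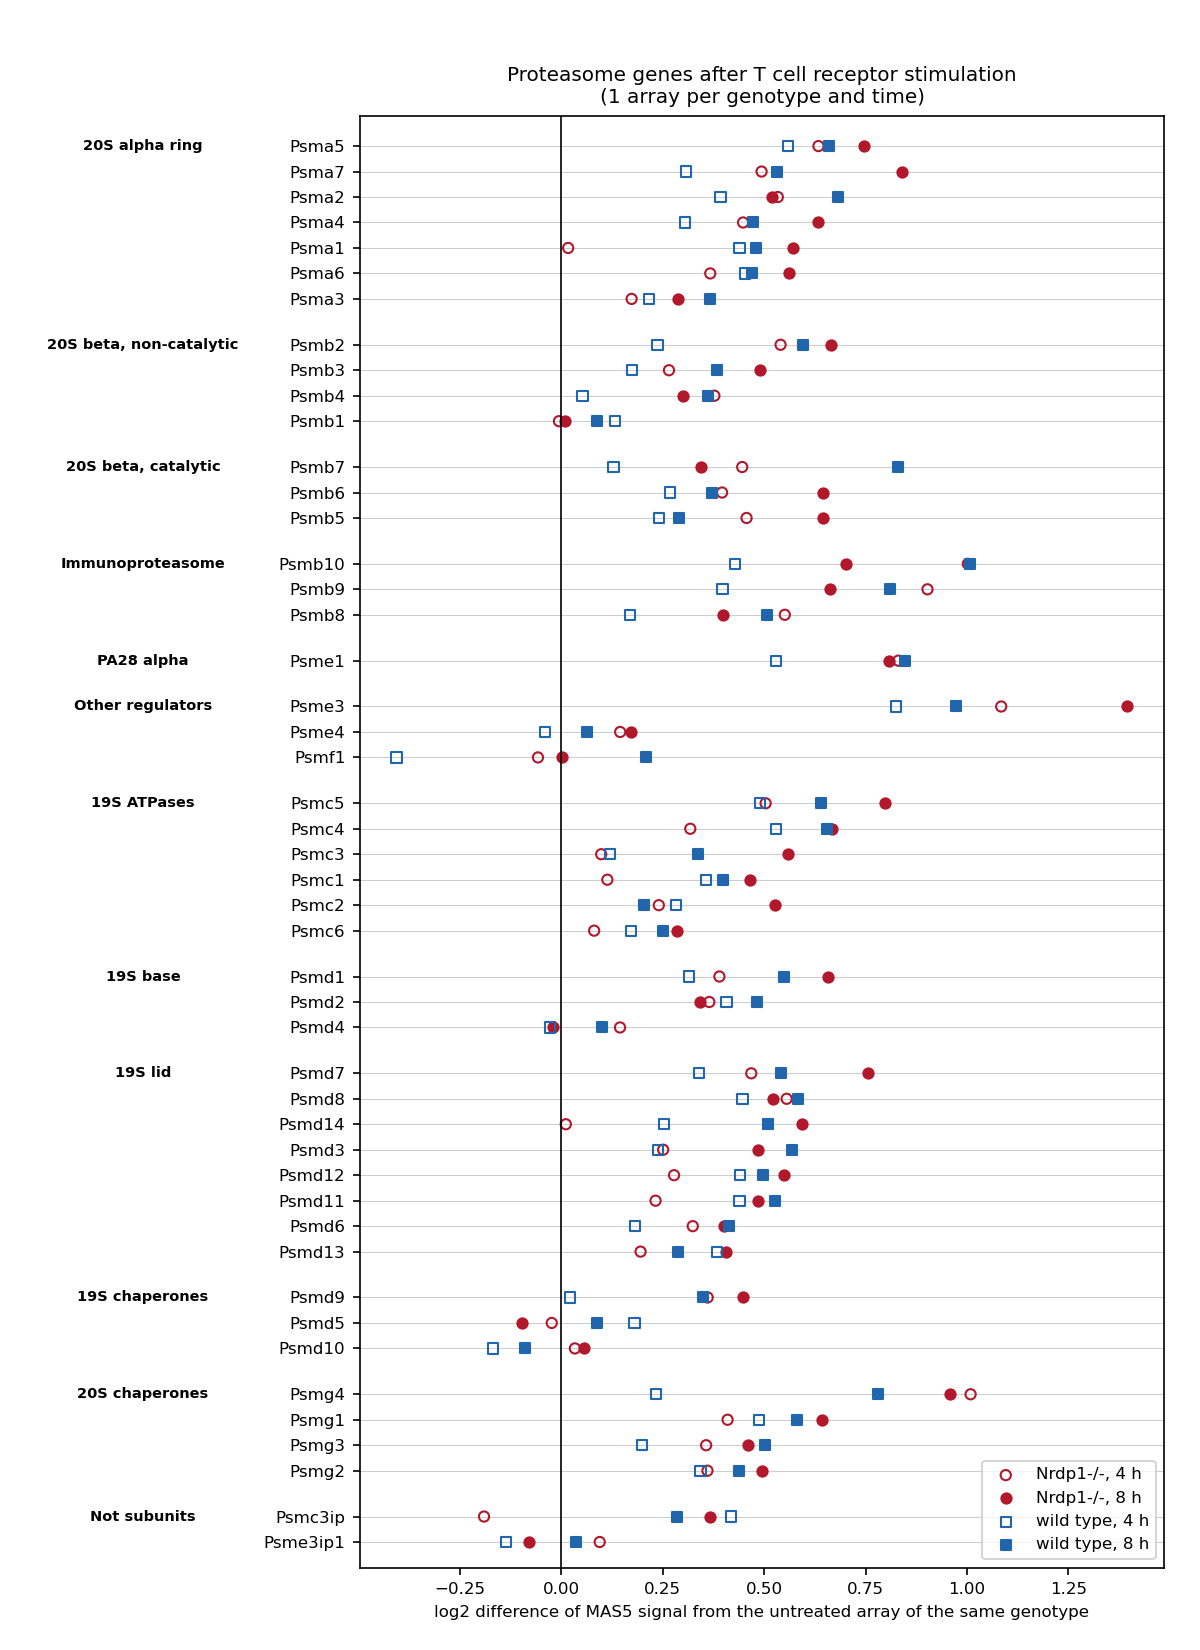
Log2 difference of MAS5 signal from the untreated array of the same genotype, for the 47 tested genes grouped by role. Red circles are Nrdp1-/- cells and blue squares wild-type cells, open at 4 h and filled at 8 h, with 1 array each. At 8 h 43 genes lie right of 0 in both genotypes, and the chaperones Psmd5 and Psmd10 are among those around 0.

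The subunits of the alpha ring gate the entrance of the core. Of its 7 tested subunits 5 rose at 4 h and all 7 at 8 h, with 8 h differences between 0.33 and 0.70. Of all 47 tested members 21 and 35 rose, and of all tested genes 8.01% and 9.88%. Counts by role, here and below, were not tested against these shares. Psma5 gave the largest 8 h change of the ring, with 3738, 5802 and 6267 on the Nrdp1-/- arrays (untreated, 4 h, 8 h), against 3605, 5312 and 5700.1 on the wild-type arrays. The 4 stimulated arrays lay well above the untreated pair, and the difference was 0.60 ± 0.10 at 4 h and 0.70 ± 0.10 at 8 h (limma, adjusted p = 0.00207 and 0.000627). With its 3 probe sets averaged it was 0.25 and 0.42 and did not pass. Psma3 gave the smallest, with 9548, 10765 and 11650.0 on Nrdp1-/- arrays, against 8654, 10048 and 11149.5 on wild-type arrays. Its groups did not overlap, but the lowest stimulated array stood close to the highest untreated one. Its 8 h difference of 0.33 ± 0.09 passed the threshold (adjusted p = 0.0304), and the call was lost without either untreated array or either 8 h array, and with median centring, no filter or averaged probe sets (adjusted p = 0.154, 0.0724 and 0.133). Psma1 and Psma3 were the ring members not called at 4 h. Psma1 stood at 4613, 4667 and 6852 in Nrdp1-/- cells, against 3882, 5265 and 5414 in wild type, so that its 4 h array matched the untreated array in the Nrdp1-/- cells and not in the wild type.

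The beta subunits without a proteolytic site were uneven. Psmb2 rose by 0.39 ± 0.11 at 4 h and 0.63 ± 0.11 at 8 h (limma, adjusted p = 0.0401 and 0.00289). It stood at 2271, 3304 and 3601 in Nrdp1-/- cells, against 2312, 2725 and 3494 in wild type. The 2 untreated arrays were nearly equal, and the wild-type 4 h array lay below the other stimulated ones. Its 4 h call was lost without the untreated Nrdp1-/-, the 4 h Nrdp1-/- or the untreated wild-type array, and also with quantile normalization, median centring, no filter or averaged probe sets (adjusted p = 0.0524, 0.0745, 0.0509 and 0.0541). Psmb3 rose at 8 h (0.44 ± 0.10, adjusted p = 0.0102), and Psmb4 did not pass (0.33 ± 0.11, adjusted p = 0.0599). Psmb1 was nearly flat over the 6 arrays, at 7439, 7409 and 7489.6 in Nrdp1-/- cells, against 7152, 7834 and 7602 in wild type. Its 8 h difference was 0.05 ± 0.09, and its highest array was 1.10 times its lowest.

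The constitutive catalytic subunits are Psmb5, of the chymotrypsin-like site, Psmb6, of the caspase-like site, and Psmb7, of the trypsin-like site. At 4 h 0 of these 3 passed the threshold (limma, adjusted p = 0.0613, 0.0607 and 0.335, with differences of 0.35, 0.33 and 0.29, of which 2 had an unadjusted p under 0.05), and at 8 h all 3 rose. With the filter at the 70th percentile Psmb5 and Psmb6 passed at 4 h (limma, adjusted p = 0.0491 and 0.0481). Both were also called at 4 h without either 8 h array. Psmb5 gave 3023, 4150.1 and 4727 in Nrdp1-/- cells, against 3354, 3962 and 4104 in wild type. Its stimulated arrays all lay above the untreated ones, and the rise at 8 h was 0.47 ± 0.11 (adjusted p = 0.0142). Psmb6 gave 3030.1, 3989 and 4738 in Nrdp1-/- cells, against 3342, 4023 and 4323 in wild type, with a rise of 0.51 ± 0.11 at 8 h (adjusted p = 0.00732). The 8 h calls of Psmb5 and Psmb6 were lost without the untreated or the 8 h Nrdp1-/- array. Psmb7 gave 584, 797 and 742 in Nrdp1-/- cells, against 493, 539.7 and 881 in wild type, and here the 4 h wild-type array lay below the untreated Nrdp1-/- array. Its rise of 0.59 ± 0.18 at 8 h (adjusted p = 0.0414) was 0.26 without the 8 h wild-type array and was then not called, nor was it without the untreated wild-type array or with median centring, no filter or averaged probe sets (adjusted p = 0.0534, 0.0632 and 0.0717).

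The immunoproteasome subunits Psmb8 (of the chymotrypsin-like site), Psmb9 (caspase-like) and Psmb10 (trypsin-like) rose at 8 h, by 0.45 ± 0.12, 0.74 ± 0.14 and 0.85 ± 0.16 (limma, adjusted p = 0.0229, 0.00444 and 0.005). Psmb9 and Psmb10 had also risen at 4 h, by 0.65 ± 0.14 and 0.72 ± 0.16 (adjusted p = 0.0106 and 0.0154), and Psmb8 had not passed (0.36 ± 0.12, adjusted p = 0.0710). Psmb8 was called at 4 h without the 4 h wild-type array (0.58) or without either 8 h array (0.36). The PA28 alpha gene Psme1 rose at both times, by 0.68 ± 0.11 and 0.83 ± 0.11 (adjusted p = 0.00177 and 0.000424). The windows around the annotated starts of these 4 genes are shown, because the genes are known as interferon targets and moved the same way here. Each holds 250 bases before and 50 after the start, from RefSeq on GRCm38.p6, with the motifs found in capitals.
Psmb8, chr17:34197945-34198244, plus strand: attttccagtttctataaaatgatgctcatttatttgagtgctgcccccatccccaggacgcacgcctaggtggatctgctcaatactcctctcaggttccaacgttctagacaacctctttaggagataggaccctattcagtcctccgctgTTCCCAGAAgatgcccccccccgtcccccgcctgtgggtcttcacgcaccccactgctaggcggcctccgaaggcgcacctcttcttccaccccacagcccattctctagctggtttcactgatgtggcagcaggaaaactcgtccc
Psmb9, chr17:34187281-34187580, minus strand: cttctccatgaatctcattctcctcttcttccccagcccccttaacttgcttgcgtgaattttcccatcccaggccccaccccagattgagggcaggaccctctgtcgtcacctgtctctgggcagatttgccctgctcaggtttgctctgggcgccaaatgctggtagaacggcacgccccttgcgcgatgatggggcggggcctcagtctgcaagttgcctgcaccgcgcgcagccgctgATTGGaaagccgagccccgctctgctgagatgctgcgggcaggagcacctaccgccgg
Psmb10, chr8:105938343-105938642, minus strand: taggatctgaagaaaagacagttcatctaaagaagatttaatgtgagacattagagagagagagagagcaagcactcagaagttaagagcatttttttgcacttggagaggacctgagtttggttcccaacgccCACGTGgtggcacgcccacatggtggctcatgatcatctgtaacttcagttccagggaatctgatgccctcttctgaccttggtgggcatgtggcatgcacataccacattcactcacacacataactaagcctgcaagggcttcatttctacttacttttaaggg
Psme1, chr14:55578244-55578543, plus strand: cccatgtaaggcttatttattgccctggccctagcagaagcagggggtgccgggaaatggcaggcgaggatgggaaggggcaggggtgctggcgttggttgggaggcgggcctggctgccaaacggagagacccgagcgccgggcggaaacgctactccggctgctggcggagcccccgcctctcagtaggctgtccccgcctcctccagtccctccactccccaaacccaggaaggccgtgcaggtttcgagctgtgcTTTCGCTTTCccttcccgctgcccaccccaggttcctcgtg

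The windows were searched on both strands for 6 motifs. These were the interferon-stimulated response element (ISRE, GAAA, then NN, then GAAA), the gamma-activated site (GAS, TTCNNNGAA), the antioxidant response element (ARE, TGACNNNGC), the CCAAT box (CCAAT), an ETS site (CCGGAAG) and the E-box (CACGTG). In the capitals above, Psme1 has an ISRE whose first base is 10 bases into the transcript, counting the start as 1. Psmb8 has a GAS at -97, Psmb9 a CCAAT box at -8 and Psmb10 an E-box at -116, and none of these 4 windows holds a match to another of the motifs. RefSeq windows were at hand for 41 of the 49 members, 44 windows in all. An ISRE was found in 11.4% of the member windows and in 3.44% of all windows of this length, and a GAS in 6.82% and 8.30%. The 5 members with an ISRE were Psmb3, Psmd4, Psmd9, Psme1 and Psmg4. It was in 3 of 31 windows of genes that rose at 8 h and in 2 of the other 13. An ETS site was found in 38.6% of the member windows and in 8.86% of all. Of 31 windows of genes that rose at 8 h 11 had it, and of the other 13 windows 6 had it. In the same order the shares were 13.6% and 12.4% for the ARE, 36.4% and 37.4% for the CCAAT box and 11.4% and 7.15% for the E-box. The matches shown do not overlap, and a match is a run of letters and not a bound site.

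Signals of these 4 genes on the single arrays ran ahead in Nrdp1-/- cells at 4 h and were level or behind at 8 h, as single-array values with no replicate check. Psmb8 stood at 9979, 14619.5 and 13147 in Nrdp1-/- cells (untreated, 4 h, 8 h), against 9522, 10714 and 13528 in wild type. Psmb9 stood at 5194, 9713 and 8224 in Nrdp1-/- cells, against 4786, 6303 and 8387 in wild type. In both genes the Nrdp1-/- signal was highest at 4 h and the wild-type signal at 8 h. Psmb10 stood at 3301, 6615 and 5372 in Nrdp1-/- cells, against 3177, 4278 and 6392 in wild type. Psme1 stood at 9079, 16152 and 15894 in Nrdp1-/- cells, against 8890.1, 12823 and 15988 in wild type. In all 4 genes the stimulated arrays lay above both untreated arrays, as they did in 37 of the 47 tested members and 16.7% of all genes. The untreated arrays of the genotypes were close in these 4 genes. The 4 h calls of Psmb9 and Psmb10 were lost without the 4 h Nrdp1-/- array (0.36 and 0.35). The 8 h call of Psmb8 was lost without the untreated Nrdp1-/- array (0.38) and without the 8 h wild-type array (0.30), and with median centring (0.41, adjusted p = 0.0673).

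**Figure D2:**
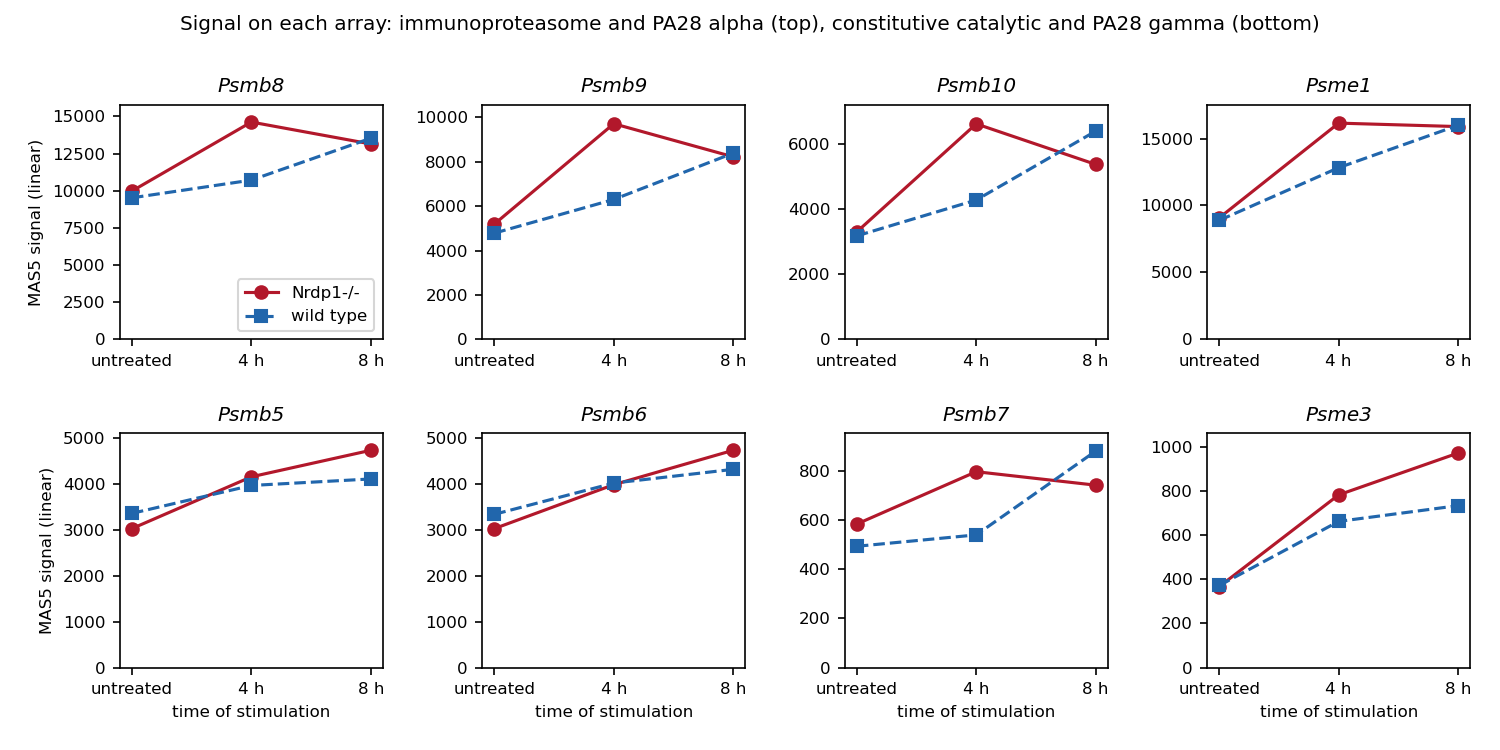
MAS5 signal on a linear scale from 0, on each of the 6 arrays, against time of stimulation, for the immunoproteasome genes and Psme1 (top) and for the constitutive catalytic genes and Psme3 (bottom). Red circles are Nrdp1-/- cells and blue squares wild-type cells, 1 array per point. For Psmb8, Psmb9 and Psmb10 the Nrdp1-/- signal is highest at 4 h (14619.5, 9713 and 6615) and the wild-type signal at 8 h (13528, 8387 and 6392).

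Each inducible subunit replaces 1 constitutive subunit, so the change of the one was set beside the change of the other on the same arrays, with no test. For Psmb9 and its partner Psmb6 the log2 change from untreated in Nrdp1-/- cells was 0.90 and 0.40 at 4 h and 0.66 and 0.64 at 8 h. In wild-type cells it was 0.40 and 0.27 at 4 h and 0.81 and 0.37 at 8 h. For Psmb10 and Psmb7 the change of the inducible subunit exceeded that of the constitutive one by 0.56 and 0.36 in Nrdp1-/- cells (4 h, 8 h) and by 0.30 and 0.18 in wild-type cells. For Psmb8 and Psmb5 the excess was 0.09 and -0.25 in Nrdp1-/- cells and -0.07 and 0.22 in wild type. The change was thus larger in the inducible subunit on all 4 stimulated arrays for Psmb9 and Psmb10 and on 2 of 4 for Psmb8. For Psmb9 at 8 h in Nrdp1-/- cells the excess was only 0.02. The 4 h and 8 h changes of a genotype share its untreated array, so these arrays are not independent checks.

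Among the remaining regulators of the core, Psme3 stood apart from Psme4 and Psmf1. Psme3 encodes PA28 gamma, a nuclear cap that acts without ubiquitin. It stood at 367, 783 and 972 in Nrdp1-/- cells, against 372, 662 and 734 in wild type. Every stimulated array was well above the untreated pair, which were nearly equal. The rise was 0.95 ± 0.15 at 4 h and 1.18 ± 0.15 at 8 h (limma, adjusted p = 0.00164 and 0.000351), the largest of all 47 members at both times and 2.27-fold at 8 h. A dimmer probe set of Psme3 changed by 0.78 ± 0.21 and 1.04 ± 0.21 (adjusted p = 0.0531 and 0.0130 over all probe sets). With all its probe sets averaged, among them a very dim one, the change was 0.30 and 0.82 and neither passed the threshold. Psme4, the PA200 cap, differed by 0.12 ± 0.10 at 8 h, and Psmf1, the PI31 inhibitor of the core, by 0.11 ± 0.15. Psmf1 stood at 821, 789 and 823 in Nrdp1-/- cells, against 735, 553 and 850.4 in wild type, with a single low array at 4 h in wild type. The start of Psme3 is shown because this gene changed most. It holds 2 ETS sites, at -107 and 3, an E-box at -44 and a CCAAT box at -14, in capitals, on GRCm38.p6.
Psme3, chr11:101315963-101316262, plus strand: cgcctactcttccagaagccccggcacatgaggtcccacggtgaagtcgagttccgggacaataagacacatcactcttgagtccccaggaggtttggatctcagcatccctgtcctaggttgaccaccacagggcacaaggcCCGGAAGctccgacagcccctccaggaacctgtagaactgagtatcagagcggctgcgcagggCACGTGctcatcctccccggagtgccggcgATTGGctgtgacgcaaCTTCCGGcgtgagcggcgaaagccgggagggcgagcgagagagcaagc

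The ATPase ring of the 19S particle unfolds substrates, and 2 of its 6 genes rose at 4 h and 5 at 8 h. Psmc5 led them with 0.50 ± 0.11 and 0.72 ± 0.11 (limma, adjusted p = 0.0115 and 0.00114). It stood at 1473, 2089 and 2564 in Nrdp1-/- cells, against 1520.0, 2136 and 2372 in wild type, and the genotypes ran closely together. Its 4 h call was lost without the untreated Nrdp1-/- array (0.45). Psmc4 was the other gene called at 4 h (0.42 ± 0.10, adjusted p = 0.0204). Psmc6 was the gene not called at 8 h, at 0.27 ± 0.10 (adjusted p = 0.0799), with 4200.1, 4442 and 5119 in Nrdp1-/- cells, against 3935, 4433 and 4679 in wild type. Without either 4 h array its 8 h change was called.

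The non-ATPase subunits of the base hold the ATPase ring and receive ubiquitin. Psmd1 and Psmd2, the large scaffolds, rose at both times, and the ubiquitin receptor Psmd4 did not pass at either. Psmd1 stood at 2163, 2834 and 3413 in Nrdp1-/- cells, against 2094, 2606 and 3063 in wild type. Signal increased with time in both genotypes, by 0.35 ± 0.10 at 4 h and 0.60 ± 0.10 at 8 h (limma, adjusted p = 0.0434 and 0.00236), and the 4 h call was lost on leaving out either untreated or either 4 h array, and with quantile normalization, median centring or no filter (adjusted p = 0.0535, 0.0891 and 0.0529). Psmd4 stood at 3901, 4313 and 3846 in Nrdp1-/- cells, against 3942, 3867 and 4222 in wild type, with differences of 0.06 ± 0.11 and 0.04 ± 0.11. Its 3 probe sets disagreed: the second gave 0.07 at 8 h and the dimmest gave -0.97 ± 0.30 (adjusted p = 0.0638 over all probe sets).

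The lid carries the deubiquitinase of the particle, Psmd14, among its 8 measured subunits, of which 4 rose at 4 h and 7 at 8 h. Psmd7, the partner of Psmd14 in the deubiquitinating unit, had the largest change of the lid at 8 h, 0.65 ± 0.11 (limma, adjusted p = 0.00271). It stood at 1199, 1659.9 and 2027 in Nrdp1-/- cells, against 1330.1, 1684 and 1938 in wild type, which put all stimulated arrays above the untreated ones. Its 4 h call (0.40 ± 0.11) was lost on leaving out either untreated or either 4 h array and with median centring (adjusted p = 0.0603), and its change with all probe sets averaged was 0.18 at 4 h and 0.41 at 8 h, neither past the threshold. Psmd14 passed the threshold at 8 h and not at 4 h. It stood at 4615, 4649.8 and 6960.4 in Nrdp1-/- cells, against 4418, 5265 and 6287 in wild type. Its difference was 0.13 ± 0.11 at 4 h (adjusted p = 0.474) and 0.55 ± 0.11 at 8 h (adjusted p = 0.00531). Psmd13 was the lid gene that did not pass at 8 h (0.35 ± 0.12, adjusted p = 0.0695), with 1156, 1325 and 1533 in Nrdp1-/- cells, against 1068, 1396 and 1304 in wild type. Without either 4 h array its 8 h change was called.

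The assembly factors of the 2 particles differed in their counts, and the difference between them was not tested. Of the 4 genes of the core assembly chaperones, Psmg1 to Psmg4, 3 rose at 4 h and all 4 at 8 h. Psmg4 had the largest change at both times, 0.62 ± 0.17 at 4 h and 0.87 ± 0.17 at 8 h (limma, adjusted p = 0.0311 and 0.00477). It stood at 808, 1631 and 1573 in Nrdp1-/- cells, against 1008, 1185 and 1733 in wild type, so the Nrdp1-/- signal was near its final value at 4 h and the wild-type signal was not. Its 4 h call was lost without the untreated or the 4 h Nrdp1-/- array (0.38 and 0.28), and with its probe sets averaged neither time passed (0.87 and 0.64). Psmg2 had the smallest 8 h change, at 2778, 3567 and 3919 in Nrdp1-/- cells, against 2838, 3600.2 and 3846 in wild type, with 0.35 ± 0.10 at 4 h and 0.47 ± 0.10 at 8 h (adjusted p = 0.0377 and 0.00799). Its 4 h call was lost without either untreated or either 4 h array, and its 8 h call without the untreated Nrdp1-/- array (0.45). With averaged probe sets neither passed (0.29 at both times), nor did the 4 h change with median centring (adjusted p = 0.0838). An ISRE was found in 5 members, of which Psme1 and Psmg4 are shown. The start of Psmg4 is shown because it holds an ISRE, with its first base at 16 in the transcript, in capitals (GRCm38.p6).
Psmg4, chr13:34162714-34163013, plus strand: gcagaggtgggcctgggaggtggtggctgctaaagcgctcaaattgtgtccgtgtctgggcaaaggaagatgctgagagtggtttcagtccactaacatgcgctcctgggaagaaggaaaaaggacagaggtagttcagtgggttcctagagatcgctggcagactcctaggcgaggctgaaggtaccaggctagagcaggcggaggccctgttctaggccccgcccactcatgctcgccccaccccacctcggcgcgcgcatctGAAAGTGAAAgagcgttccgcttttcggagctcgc

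Of the 3 genes of the 19S assembly chaperones, Psmd5, Psmd9 and Psmd10, 0 passed the threshold at 4 h or 8 h (limma), with 1 of them at an unadjusted p under 0.05 at 8 h and 0 called without the intensity trend. That one was Psmd9, at 542, 697 and 741 in Nrdp1-/- cells, against 513, 521 and 655 in wild type (0.40 ± 0.14 at 8 h, adjusted p = 0.0767). The 8 h change of Psmd9 was called without either 4 h array. Psmd10, also known as gankyrin, stood at 1191, 1219 and 1238 in Nrdp1-/- cells, against 1433, 1275 and 1347 in wild type. Psmd5 stood at 1326, 1304 and 1239.9 in Nrdp1-/- cells, against 1240.3, 1406 and 1318 in wild type. In both genes the untreated and stimulated arrays overlapped, and the 8 h differences were -0.02 ± 0.12 and 0.00 ± 0.12.

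The genes in the list that are not subunits did not pass either. Psme3ip1 stood at 1949.9, 2082 and 1846 in Nrdp1-/- cells, against 2029, 1844 and 2080.4 in wild type (-0.02 ± 0.12 at 8 h). Psmc3ip stood at 218, 190.4 and 282 in Nrdp1-/- cells, against 152, 205 and 186 in wild type (0.33 ± 0.25 at 8 h, limma, adjusted p = 0.402). Its standard error in the fit was the largest of the tested members. Psma8, the alpha subunit of germ cell proteasomes, and Psmb11, the catalytic subunit of thymic cortical epithelium, lay below the array median on all 6 arrays and were not tested. Psma8 stood at 8.17 to 36.9 in Nrdp1-/- cells and 10.8 to 24.8 in wild type, and Psmb11 at 9.07 to 24.1 in Nrdp1-/- cells and 5.32 to 40.4 in wild type.

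The members' dimmer probe sets gave smaller differences at the median. Beside the 49 probe sets used, 54 others carry a member's symbol, of which 45 were tested. Of these 2 rose at 4 h and 7 at 8 h, 0 fell, and their median difference was 0.08 and 0.20 (limma, adjusted over all probe sets). Of all tested genes, read from their brightest probe sets, 8.01% rose at 4 h and 9.88% at 8 h, and 5.51% and 9.26% fell. The share over all probe sets was not worked out, and the 4 h count is not above the share of genes. The second probe set of Psma5 had changed by 0.72 ± 0.11 at 8 h, as had that of Psma7 (0.72 ± 0.11), beside 0.70 and 0.68 on their brightest probe sets. The second probe set of Psmb8 stood at 210.5, 302 and 347 in Nrdp1-/- cells, against 238, 267 and 337 in wild type. Its 8 h difference was 0.60 ± 0.18 (adjusted p = 0.0608 over all probe sets), and it did not show the decline from 4 h to 8 h in Nrdp1-/- cells that the brightest probe set of the gene showed.

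Between 4 h and 8 h 0 members passed the threshold in either direction, where 0.0185% of all genes rose and 0.0277% fell (limma). At an unadjusted p under 0.05 there were 9 higher members and 0 lower ones, against 3.47% and 4.9% of all genes, and 2 higher ones without the intensity trend, where 0 were called as well. The differences were positive for 44 of 47 members and 48.3% of all genes, with medians of 0.16 and -0.0072. The largest member difference was that of Psmd14 (0.42 ± 0.11, adjusted p = 0.243). In Nrdp1-/- cells 13 members had less signal at 8 h than at 4 h, as did 53.9% of all genes, and in wild-type cells 5 did, against 48% of all genes. The 13 included Psmb7, Psmb8, Psmb9, Psmb10 and Psme1, which in wild type were all higher at 8 h. In 30 members the 8 h signal was above the 4 h signal in both genotypes, as in 24.1% of all genes.

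Between the genotypes 0 members differed over the 3 times, where 2.47% of all genes were higher and 2.57% lower in Nrdp1-/- cells (limma). Nor did any have an unadjusted p under 0.05, with or without the intensity trend, where 7.90% of all genes were higher and 8.63% lower by that measure in the fit with the trend. The mean difference was positive for 37 of 47 members with a median of 0.08, where 47.4% of all genes were positive and their median was -0.01. Psmc3ip had the largest value (0.33 ± 0.20, adjusted p = 0.472), and Psmd10 the lowest (-0.15 ± 0.09). Of the subunits Psmb9 had the largest, 0.24 ± 0.11 (adjusted p = 0.335). Without the 8 h Nrdp1-/- array it was 0.37 and passed the threshold (adjusted p = 0.0365), and likewise without the 8 h wild-type array (0.37, adjusted p = 0.0355). Those 2 fits use the same differences at the untreated and 4 h times. The B cell, myeloid and memory-like markers given above differ along the same contrast, and their part in these values was not tested.

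Whether stimulation changed the members otherwise in Nrdp1-/- cells was tested by a genotype-by-stimulation term, and 0 members passed, where 0.0923% of all genes were higher and 0.129% lower (limma). All 47 had an adjusted p of 0.999857, and 0 had an unadjusted p under 0.05, with or without the intensity trend, where 1.68% of all genes were higher and 2.07% lower by that measure. On the log2 scale the largest value was that of Psmg4 (0.48 ± 0.25). That term averages both stimulated times. At single times there is 1 array against 1 and no test. At 4 h 10 members were at least 1.2-fold above wild type in Nrdp1-/- cells, as were 19.3% of all genes, and 0 were at least 1.2-fold below, where 19.1% of all genes were. The 10 were, by size, Psmb10 (0.63), Psmb9 (0.62), Psmb7 (0.56), Psmf1 (0.51), Psmg4 (0.46), Psmb8 (0.45), Psmd9 (0.42), Psme1 (0.33), Psmb2 (0.28) and Psmg3 (0.28). At 8 h the difference was -0.25 for Psmb10, -0.03 for Psmb9, -0.04 for Psmb8 and -0.01 for Psme1. In 13 of 47 members the Nrdp1-/- signal was above wild type at 4 h and below it at 8 h, and 24.8% of all genes had that order. The members' shares at least 1.2-fold above wild type at 4 h and with that order are near those of all genes.

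**Figure D3:**
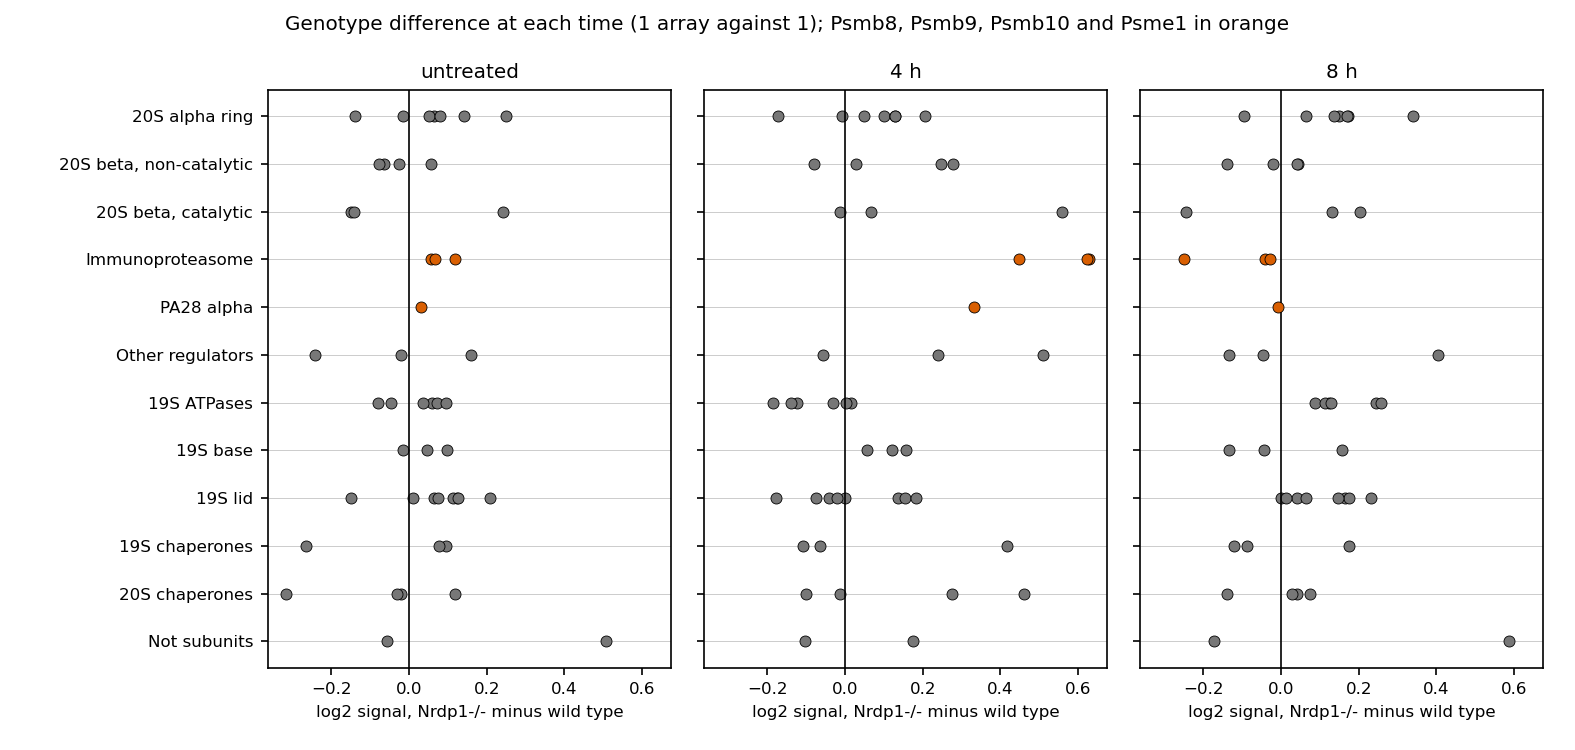
Log2 signal, Nrdp1-/- minus wild type, of the 47 tested genes at each time, by role, from 1 array against 1. Psmb8, Psmb9, Psmb10 and Psme1 are orange and the other genes grey. At 4 h the orange points lie between 0.33 and 0.63, and at 8 h between -0.25 and -0.01.

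A few genes that work with the proteasome but lie outside the rule rose. Of 8 partners 1 rose at 4 h and 3 at 8 h, where 8.01% and 9.88% of all tested genes rose. Pomp, the maturation factor of the core, stood at 4319, 5822 and 6580.0 in Nrdp1-/- cells, against 3862, 4966 and 5647 in wild type. It rose by 0.40 ± 0.10 and 0.58 ± 0.10 (limma, adjusted p = 0.0189 and 0.00208). The proteasome-bound thioredoxin Txnl1 (0.38 ± 0.10) and the deubiquitinase Uchl5 (0.36 ± 0.11) rose at 8 h. Of 10 ubiquitin and shuttle genes 1 rose at 4 h and 2 at 8 h. These were Nsfl1c, a cofactor of the unfoldase Vcp (0.76 ± 0.11 at 8 h), and the shuttle receptor Rad23b (0.41 ± 0.11). At 4 h the counts of both lists are near the share of all genes, and whether the 8 h counts exceed it was not tested. Nfe2l1, which drives proteasome genes when the proteasome is inhibited, did not pass (0.07 ± 0.12 and 0.19 ± 0.12). Nfe2l2, of the same list of 3 regulators, had negative differences that did not pass (-0.18 ± 0.10 and -0.27 ± 0.10, limma, adjusted p = 0.274 and 0.0901). Ngly1, the glycanase that activates the Nfe2l1 protein, fell by 0.57 at both times (-0.57 ± 0.10, adjusted p = 0.00366 and 0.00285), with 4009, 2628 and 2605 in Nrdp1-/- cells, against 4296, 2989 and 2992 in wild type.

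The genes that carry and load the peptides made by the proteasome rose in part. Of 13 measured genes of class I peptide supply and its regulators 6 rose at both 4 h and 8 h and 0 fell, with 0 negative at an unadjusted p under 0.05. Of all tested genes 8.01% rose at 4 h and 9.88% at 8 h, and 5.51% and 9.26% fell. Between genotypes 0 differed (limma), with Erap1 at an unadjusted p under 0.05, where 2.47% of all genes were higher and 2.57% lower. The tapasin gene Tapbp, which bridges the peptide transporter and class I, stood at 7849, 14212 and 14693 in Nrdp1-/- cells, against 7376, 11219 and 14474 in wild type, and rose by 0.73 ± 0.10 and 0.94 ± 0.10 (limma, adjusted p = 0.000947 and 0.000149). Nlrc5, the transactivator of class I genes and of Psmb9, stood at 4274, 8972 and 6839.7 in Nrdp1-/- cells, against 4523, 7214 and 8251 in wild type, and rose by 0.87 ± 0.13 and 0.77 ± 0.13. As in Psmb8, Psmb9 and Psmb10, the Nrdp1-/- array was the higher one at 4 h and the wild-type array at 8 h. Tap1, a chain of the peptide transporter, is the neighbour of Psmb9 in the opposite direction, and their start windows overlap by 275 bases. Tap1 did not pass, at 0.08 ± 0.16 and 0.17 ± 0.16, with 6180.0, 8759 and 7465 in Nrdp1-/- cells, against 7795, 6154 and 8219 in wild type. At 4 h it was the Nrdp1-/- array that was high and the wild-type array that was low. Irf1, an interferon-induced activator of these genes, rose by 1.81 ± 0.10 and 1.61 ± 0.10. Ifng, which encodes interferon gamma, stood at 80.4, 3786 and 6323 in Nrdp1-/- cells, against 27.1, 1011 and 825 in wild type. Its part in the values of the proteasome genes was not tested.

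**Figure D4:**
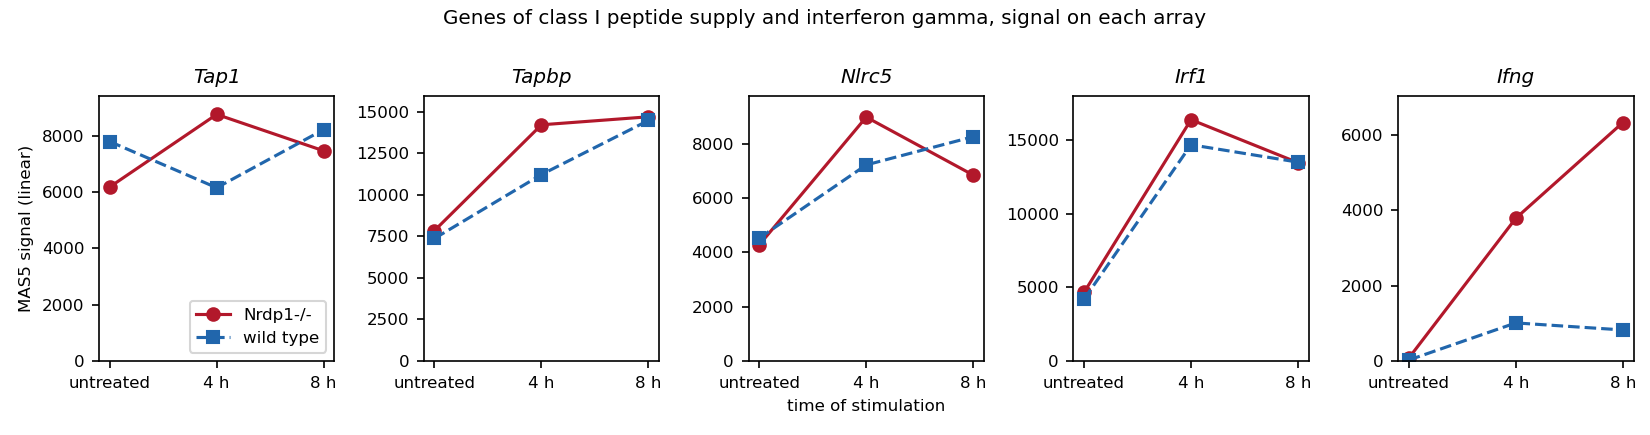
MAS5 signal on a linear scale from 0, on each of the 6 arrays, against time of stimulation, for 4 genes of class I peptide supply and for Ifng. Red circles are Nrdp1-/- cells and blue squares wild-type cells, 1 array per point. At 4 h the Nrdp1-/- array is above the wild-type array in all 5 genes, as it is for 51.3% of all tested genes. Canx, of the class I list but not plotted, is below it at 4 h (-0.12 on the log2 scale). These orders were not tested. At 8 h Ifng stands at 6323 in Nrdp1-/- cells and 825 in wild type.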

How the data were processed

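Per the submitters' processing notes, the authors' deposited values are MAS5 signal intensities, 1 linear value for each probe set. The version and genome build are not given in the sources used here. Of 45101 probe sets, 64 were array controls and were not used. By the platform annotation 34945 have 1 symbol and 932 have several, and 9160 are not in it and are unnamed here. Of the first, 34741 matched RefSeq on GRCm38.p6 by Entrez identifier and 0 symbols changed. Groups came from the titles.

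Signals were taken as log2(signal + 4.45), the constant being the 10th percentile of all values, which understates changes of dim genes. Genes at or above the array median on at least 2 of 6 arrays were kept, 10838 in all. limma 3.58.1 in R 4.3.3 (lmFit, eBayes with intensity trend, Benjamini-Hochberg over all kept genes, threshold 0.05) was fitted with time and genotype as additive terms, with 2 residual and 8.99 prior degrees of freedom. The genotype-by-stimulation term left 1 residual degree of freedom, with the prior estimated as infinite. Errors are standard errors of this fit over 6 arrays. Values at 1 time within or between genotypes have no replicate and no test. The number of arrays limits the precision. The genotype and 8 h terms of the additive fit were tested on simulated data.

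The members, roles, gene lists and rules were chosen with earlier results of these data known. Given with all 6 values are the catalytic subunits, PA28 alpha, the 4 called members with the largest rise at each time, and the members with the largest and smallest 8 h difference of each role. Other members given with values were chosen after these were seen. Alternatives were quantile normalization, median centring, a pseudocount of 1 or 24.3 (the 30th percentile), all genes unfiltered, a minimum at the 70th percentile, each gene's probe sets averaged, no intensity trend, the stimulated arrays alone for genotype, the second probe set of Psmb8, and leaving out each array in turn.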

Additional observations from a re-analysis of the deposited data

Results flagged for a closer look

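Psmd10 and Psmd5, both chaperones of 19S assembly, had single-array differences of opposite sign in the 2 genotypes. For Psmd10 both stimulated Nrdp1-/- arrays lay above the untreated one and both stimulated wild-type arrays below, and the difference in response was 0.1728 (limma, adjusted p = 0.9999). For Psmd5 the order was the reverse, with a difference in response of -0.194 (adjusted p = 0.9999). Neither difference passed the test of the difference itself.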

How the results depend on the processing

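The number of members that rose moved with several choices. At 4 h it was 21, and it was 12 with median centring, 11 with each gene's probe sets averaged, 0 without the intensity trend and 5 to 24 on leaving out 1 array. At 8 h it was 35, and it was 20 with them averaged, 0 without the trend and 22 to 39 on leaving out 1 array. Quantile normalization (18 and 35), both pseudocounts (21 and 35 each), no filter (17 and 32) and the filter at the 70th percentile (23 and 35) stayed within 1.5 times. The count between genotypes was 0 under every setting except on leaving out 1 array, where it was 0 to 1, and the counts of fallen members, of members changed from 4 h to 8 h and of response differences were 0 under every setting run. Median centring moved the median of all genes at 8 h to -0.11. The cause of these changes was not tested.

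Values that changed sign were all uncalled. With averaged probe sets Psmc6 at 4 h became -0.012, Psmd4 -0.22 at 4 h and -0.29 at 8 h, and Psmf1 -0.14 at 8 h. The genotype difference of Psmb6 became 0.0066 with median centring and 0.060 on the stimulated arrays alone. On leaving out 1 array the 4 h difference ran from -0.21 to 0.44 for Psmc3ip, -0.058 to 0.17 for Psmd4, -0.15 to 0.019 for Psmd10 and -0.17 to 0.12 for Psme3ip1. At 8 h it ran from -0.0051 to 0.10 for Psmb1, -0.064 to 0.14 for Psmd4, -0.10 to 0.070 for Psmd10, -0.085 to 0.30 for Psmf1 and -0.14 to 0.094 for Psme3ip1. The genotype difference ran from -0.098 to 0.34 for Psmb10, -0.041 to 0.14 for Psmb5, -0.077 to 0.060 for Psmb6 and -0.0020 to 0.40 for Psmb7. No paired analysis was possible because each group has 1 array and the labels give no replicate numbers to pair by, and the genotype term of the fit already sets the times against each other within genotype. Signal over background limits Psma8 and Psmb11.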
